A study of Mus musculus with 3 samples.

Results

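The Ms4a18-high enterocytes were 190 of the 5594 epithelial cells kept from mouse intestine, or 3.40% of them, and were spread over 3 single-cell libraries, with 70 cells of the first Arid3a cKO library (cKO 1), 47 of the second (cKO 2) and 73 of the WT library. They were chosen by measured values. A kept cell had at least 1000 genes detected and at most 15% of its UMIs (unique molecular identifiers, 1 per captured mRNA) from mitochondrial genes, and 25554 barcodes were deposited. A member also had at least 5 UMIs of Ms4a18 and fewer than 4 genes detected in each of 3 sets of 6 genes, which mark the villus base (Edn2, Ccl20, Rbp7, Bmp3, Rflnb and Dmbt1), Akp3-type enterocytes (Akp3, Slc40a1, Tmprss15, Otop3, Sult6b2 and Gm2061) and Cubn-type enterocytes (Cubn, Slc5a4b, Dnase1, Bst1, Leap2 and Ace). The genes of the rule chose the cells, so their levels are given as a description.

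The cKO mice carried VillinCreERT2 and 2 floxed Arid3a alleles, and the WT control carried VillinCreERT2 alone. VillinCreERT2 is a tamoxifen-inducible recombinase driven by the villin promoter in the intestinal epithelium, so control cells also carried the transgene. All mice received tamoxifen at 8 to 10 weeks of age and were taken 1 month after the first dose. The labels give intestine as the tissue and describe a crypt preparation sorted for live Epcam+ CD45- CD31- cells, with 2 cKO libraries and 1 WT library. With 1 WT library, the genotype and the library cannot be told apart, and the labels do not state how many animals gave a library.

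Enterocytes are the absorptive cells of the villus. They arise from dividing crypt cells, move towards the villus tip and change their genes on the way, with antimicrobial and stress genes prominent low on the villus and nutrient uptake and lipid export genes prominent higher up. Ms4a18 encodes a member of the membrane-spanning 4-domain family, most members of which are studied in immune cells. Car4 is a membrane-bound carbonic anhydrase, Il18 an inflammasome cytokine, Reg3g a secreted C-type lectin that acts on Gram-positive bacteria, and Dgat2 an enzyme of the last step of triglyceride synthesis.

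Ms4a18 lies on the minus strand at chr19:10997025-11018031 (GRCm38, GENCODE M21), between Ms4a15 and Ms4a8a, with Ms4a10 beyond Ms4a15 and all of them on the minus strand. Its promoter window, 250 bases before to 50 after the RefSeq start, is shown because this gene defines the cells. The window is chr19:11017914-11018213 of GRCm38.p6, read 5′ to 3′ on the minus strand, and capitals mark a match to the HNF4-type sequence CAAAGTCC, searched on both strands.
Ms4a18: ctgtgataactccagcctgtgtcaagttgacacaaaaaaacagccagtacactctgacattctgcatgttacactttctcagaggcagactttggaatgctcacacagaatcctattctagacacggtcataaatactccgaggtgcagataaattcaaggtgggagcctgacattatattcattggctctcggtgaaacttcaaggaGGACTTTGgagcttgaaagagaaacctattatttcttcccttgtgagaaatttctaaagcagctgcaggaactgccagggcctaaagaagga
Such a match was present in 1.42% of the 32851 promoter windows of the RefSeq table. Of 11 genes searched for it (Ms4a18, Ms4a10, Car4, Il18, Reg3g, Reg3b, Dgat2, Apoa1, Apoc3, Fabp2 and Rbp2), 9 had a window and 2 of these, Ms4a18 and Rbp2, held the letters.

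The members had a median of 31111 UMIs in cKO 1, 37688 in cKO 2 and 31585 in WT, with summed depths of 2181235, 1728146 and 2326029 UMIs. Their median mitochondrial share was 4.25%, 5.20% and 5.80% in the same order. No member barcode occurred in more than 1 library. Scrublet marked 1 member per library as a possible doublet.

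The members' share of kept cells was 3.28% in cKO 1 (exact 95% binomial interval, 2.57 to 4.13), 3.03% in cKO 2 (2.24 to 4.01) and 3.82% in WT (3.01 to 4.78). The 3 intervals overlapped, and an exact two-sided permutation test over 2 against 1 libraries cannot give a p below 0.333. The intervals cover counting error only. Of 727 kept cells with at least 5 Ms4a18 UMIs, 307 reached the limit of the villus-base set, 118 that of the Akp3 set and 225 that of the Cubn set, with 103 in several, so most Ms4a18-rich cells were not members.

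The rule cut through a continuum. Members held 5 to 17 Ms4a18 UMIs with a median of 7 in each library, and 46 of the 190 sat at exactly 5. Another 67 kept cells met the set limits with exactly 4 Ms4a18 UMIs. Between members with 5 or 6 UMIs and otherwise eligible cells with 3 or 4, Car4 was at 234 against 282 CPM (a gene's share of the summed UMIs, scaled to 1000000) in cKO 1, 250 against 132 CPM in cKO 2 and 288 against 208 CPM in WT. Il18 was at 466 against 415 CPM, 517 against 368 CPM and 340 against 358 CPM in the same order. On the side of the sets, 151 of the 190 members had exactly 3 genes detected in at least 1 set, most often the villus-base set (92 cells) and the Cubn set (84 cells), and 44 reached 3 in the Akp3 set.

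The members carried enterocyte markers. All 13 enterocyte markers were detected in every library, and the median member had all 13 detected. Markers of immune cells and of stromal or endothelial cells were at 0, other than the immune gene Ptprc in cKO 1. The stem-cell list stood at 0.189 to 0.22 UMIs per 10000 in the members, with Ascl2 and Tnfrsf19 at 0 in all 3 libraries. Of 8 tuft-cell markers, 4 were at 0 in cKO 1, 7 in cKO 2 and 4 in WT, with Trpm5 and Alox5ap at 0 in every library. The median member had 0, 1 and 1 of the 8 detected, and no member had more than 2. Of 8 enteroendocrine markers the median member had 1 detected in each library, and 4, 2 and 7 members had 3 or more.

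Paneth, goblet and proliferation RNA was also counted in the members. Defa24, a Paneth-cell defensin, was found in 100%, 93.6% and 93.2% of members in cKO 1, cKO 2 and WT, at 160 CPM, 113 CPM and 172 CPM against 19047, 17996 and 18971 CPM in all other kept cells. Nearly every member thus held a few UMIs of a gene that enterocytes are not known to make. In addition, 4 members stood apart. The goblet-list level of 1 cell per library was 228, 298 and 1586 UMIs per 10000, against 18.2, 4.35 and 11.8 for the next member of that library. The proliferation list reached 28.9 UMIs per 10000 in the same cell of cKO 2 and 40.4 in another cell of WT, against at most 6.31 in the others. The counts of calls, and the calls named below as lost or gained, are given with and without these 4 cells.

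The 5 label markers did not stand out alike. Ms4a18, which chose the cells, was at 236 CPM in cKO 1, 225 CPM in cKO 2 and 241 CPM in WT, against 42.9 to 63.5 CPM in the villus-base, Akp3 and Cubn groups, which hold the kept cells with at least 4 detected genes of that set alone. Car4 was at 243, 303 and 293 CPM and lay above all 3 groups in every library, the nearest being the villus-base group at 127, 100 and 127 CPM. Reg3g also lay above the groups in every library, but it was close to the Cubn group in cKO 2, at 902 against 879 CPM, and in WT, at 3128 against 2999 CPM. Dgat2 was at 152, 159 and 160 CPM against 140, 138 and 139 CPM in the Cubn group. Il18 in WT was at 391 CPM in the members and 402 CPM in the Akp3 group, so the members were not the highest group for it in every library.

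**Figure D1:**
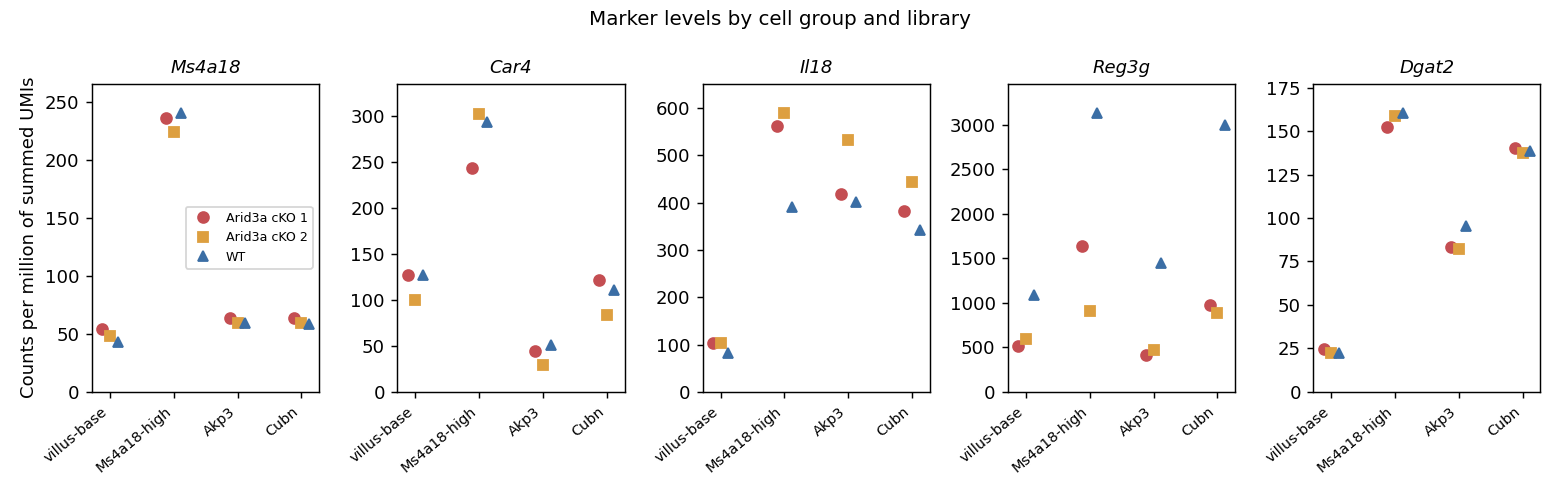
CPM of summed UMIs (y axis, from 0) of the 5 label markers in the villus-base, Ms4a18-high, Akp3 and Cubn groups (x axis), 1 point per library. Ms4a18 and Car4 are highest in the Ms4a18-high cells in all 3 libraries, while Dgat2 lies close to the Cubn group (152 to 160 against 138 to 140 CPM).

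By their absorptive genes the members lay between the villus-base group and the Cubn group. All 13 enterocyte genes were above the villus-base group in every library and 12 of them were also below the Cubn group. The share of all genes with such an order is not given, so the list counts here and below are a description. The summed enterocyte list was at 564, 611 and 511 UMIs per 10000 in the members, 69.5 to 87.5 in the villus-base group, 500.2 to 619 in the Akp3 group and 894 to 1110.3 in the Cubn group. The villus-base group also held Paneth-list RNA at 47.2 to 156 and proliferation-list RNA at 21.3 to 27.2 UMIs per 10000, against 2.41 to 3.33 and 1.78 to 3.34 in the members. The median single cell of the villus-base group had a proliferation list of 8.08, 14.2 and 17.6 UMIs per 10000, above the 5.71 to 6.65 of the median cell outside all sets, and an enterocyte list of 42.7, 26.4 and 24.4. By these lists its typical cell was not a mature enterocyte, and the group is named here only by its rule genes.

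Lipid handling genes followed this order. Of the 20 genes of triglyceride synthesis and chylomicron assembly, all 20 were above the villus-base group in every library and 17 were below the Cubn group. Apoa4, an apolipoprotein of chylomicrons, was at 1845 CPM in cKO 1, 2082 CPM in cKO 2 and 2185 CPM in WT, against 146, 206 and 161 CPM in the villus-base group and 7003, 6696 and 4982 CPM in the Cubn group. Fabp1, a fatty-acid binding protein of the cytosol, was at 15583, 18696 and 15702 CPM, against 31184, 29571 and 25693 CPM in the Cubn group. Dgat2 and Plin2, a lipid-droplet coat protein, were the 2 listed lipid genes above all 3 groups in every library. Plin2 was at 173, 155 and 197 CPM in the members, with 128, 114 and 151 CPM in the Cubn group.

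Sugar and peptide genes were placed likewise. All 10 genes of sugar digestion and transport were above the villus-base group and 9 were below the Cubn group in every library. Lct, the lactase of the brush border, was at 151 CPM in cKO 1, 172 CPM in cKO 2 and 220.1 CPM in WT, far below the 718 to 759 CPM of the Cubn group and above the 15.8 to 22.3 CPM of the villus-base group. Slc5a1, the apical sodium-glucose cotransporter, was at 915, 738 and 748 CPM. Of 14 peptide and amino acid uptake genes, 12 lay between both groups. Anpep, a brush-border aminopeptidase, was at 1172, 1163 and 1226 CPM in the members and 520.4 to 744 CPM in the Akp3 group.

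**Figure D2:**
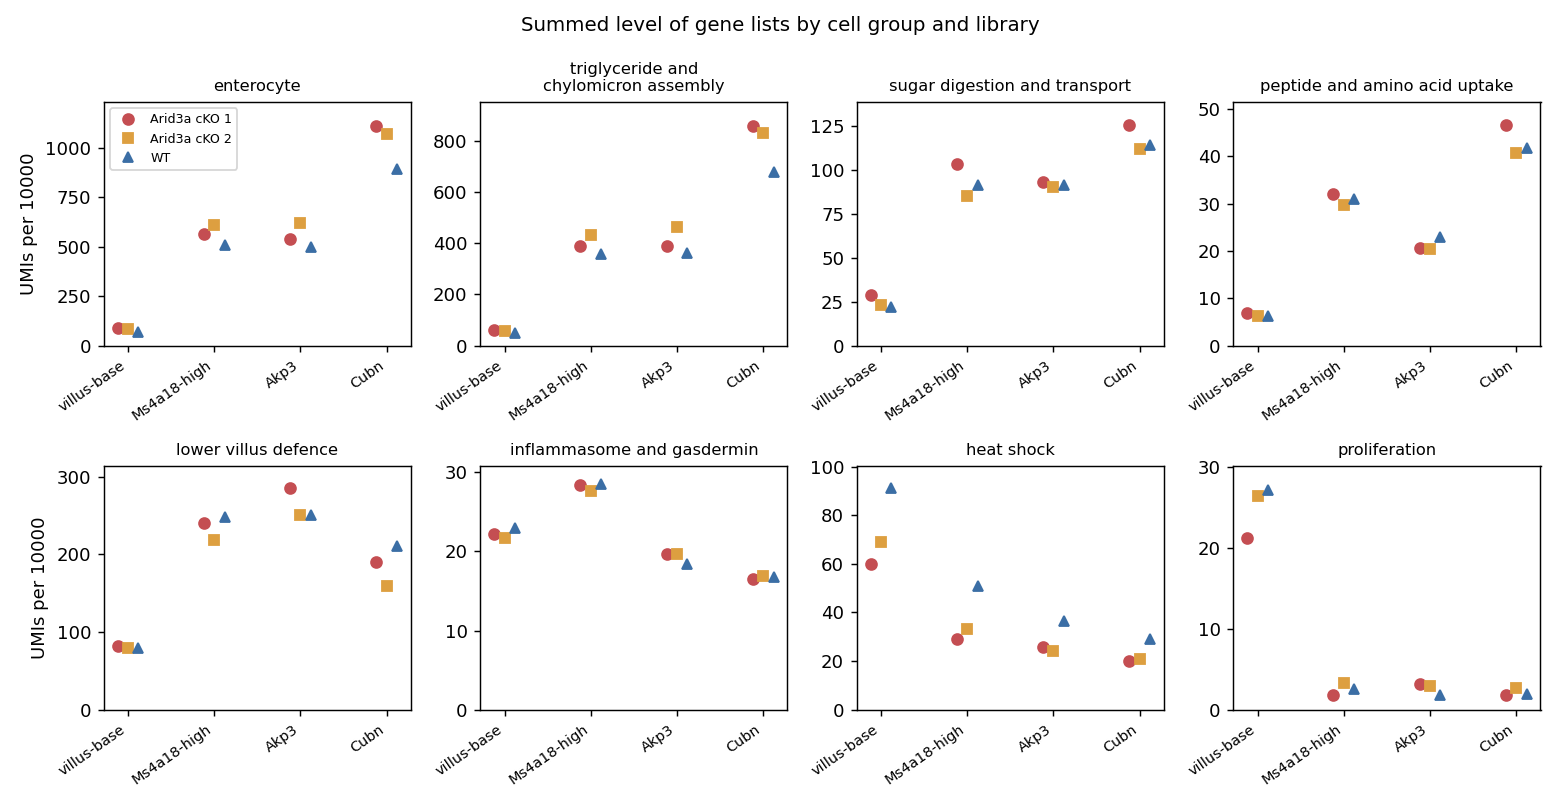
Summed UMIs per 10000 (y axes, from 0) of 8 gene lists in the 4 cell groups (x axis), 1 point per library. The enterocyte, lipid, sugar and peptide lists of the Ms4a18-high cells lie between the villus-base and Cubn groups. The inflammasome list (27.6 to 28.5), which includes the label marker Il18 and was not summed without it, is highest in the Ms4a18-high cells.

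Defence genes had a different order. Of the 9 lower-villus defence genes, 7 were above the Cubn group in every library, and 4 of them, Reg3g, Nlrp6, Lypd8 and Ccl25, were above all 3 groups. Lypd8, a secreted protein that keeps flagellated bacteria from the epithelium, was at 4491 CPM in cKO 1, 4593 CPM in cKO 2 and 5185 CPM in WT, against 2283 to 2811 CPM in the 3 groups. Ccl25, a chemokine for gut-homing lymphocytes, was at 1604, 1574 and 1371 CPM against 659 to 1236 CPM. Reg3b was in contrast higher in the Cubn group, at 3633, 2189 and 6212 CPM against 2066, 1252 and 3746 CPM in the members. Reg1 was higher in the Akp3 group, at 22525, 19724 and 17066 CPM against 12448, 11674 and 9557 CPM in the members. Of the 9 genes, 7 were above the Akp3 group in every library and 1, Reg1, was below it. Summed on the scale of the enterocyte list, the 9 genes were at 240, 218 and 248 in the members. The Akp3 group was higher, at 286, 251 and 250, and the Cubn group was at 160 to 210.

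The inflammasome list was at 28.4, 27.6 and 28.5 UMIs per 10000 in the members and at 16.5 to 23.0 in the 3 groups. This list includes the label marker Il18, at 563, 589 and 391 CPM in the members and 103, 103 and 81.7 CPM in the villus-base group. Part of the gap is thus Il18 itself, and the list was not summed without it. Of its 14 genes, 3 were above all 3 groups in every library, and the share of all genes with this order is not given. Nlrp6, a sensor of the NOD-like receptor family, was at 395, 350 and 470 CPM in the members and at 176 to 305 CPM in the groups. Casp1, which cleaves pro-IL-18, was at 264, 248 and 238 CPM, above all 3 groups in every library, and so was Naip1, a sensor of bacterial proteins, at 42.6, 39.3 and 41.7 CPM. Pycard, the inflammasome adaptor, was lower in the members than in the villus-base group, at 1386, 1347 and 1506 against 1589, 1604 and 1730 CPM. Gsdmd, the pore-forming gasdermin, was higher in the Cubn group (205.8 to 218 CPM) than in the members (95.5 to 102 CPM). Il1b had no UMI in any member.

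Within the Ms4a family, 13 of 18 listed genes had no UMI in the members, including the B-cell gene Ms4a1. Ms4a8a was at 202, 206 and 210 CPM and Ms4a10 at 505, 485 and 347 CPM, and every member had an Ms4a8a UMI. Ms4a10 was higher in the Cubn group, at 842, 789 and 597 CPM, while Ms4a8a was similar there (207 to 232 CPM). Neither gene was used by the rule, and neither was highest in the Ms4a18-high cells in every library.

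Beyond the rule, 15 genes were named by the smallest of the 3 library ratios to all other kept cells. Those cells include 1502 of the villus-base group and 1937 outside all sets, many of them not enterocytes. A high ratio thus does not set the members apart from other enterocytes. Areg, an EGF receptor ligand, led with 398 CPM in cKO 1, 326 CPM in cKO 2 and 340 CPM in WT, against 151, 104 and 116 CPM in the other cells. Ihh, the hedgehog ligand sent by enterocytes to the stroma, was at 136, 104 and 107 CPM against 51.7, 42.4 and 41.5 CPM. Mfsd2a, a lysophospholipid transporter, was at 53.6, 52.1 and 58.9 CPM against 15.5, 17.2 and 22.1 CPM. Creb3l3, a transcription factor of lipid genes, was at 359, 428 and 360 CPM against 167, 169 and 141 CPM. The others were Dgat2, 2010003K11Rik, Car4, 2210407C18Rik, Pccb, Cdr2, Il18, Pxdc1, Coro2a, Emc9 and Anpep. Of the 15, Car4 and Coro2a were also among the 8 genes furthest above the Akp3 group. The 8 genes furthest above the Cubn group were others, such as S100g and Krt19.

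The 2 other enterocyte states differed from the members in named genes. S100g, a calcium-binding protein of calcium absorption, was at 743, 465 and 519 CPM in the members, 6035, 8007 and 4280 CPM in the Akp3 group and 156, 131 and 133 CPM in the Cubn group. Slc46a1, a folate and haem transporter, was also lower than in the Akp3 group, at 31.6, 30.7 and 30.1 against 146, 184 and 161 CPM, while Reg3a was higher, at 500.2, 576 and 463 against 127, 119 and 134 CPM. Against the Cubn group the members had more Krt19, an epithelial keratin (2509, 2245 and 2110 against 713, 620.3 and 614 CPM), and more ribosomal protein RNA such as Rpl12 (1239, 1057 and 1101 against 331, 409 and 372 CPM). They had less Selenop, a selenium carrier, at 254, 186 and 231 against 1891, 1762 and 1347 CPM. Olfm4, a stem-cell marker, was at 0.917, 0 and 3.01 CPM in the members and 148, 149 and 161 CPM in the villus-base group.

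Several defence genes were among those that varied most between members. With each cell thinned to 15000 UMIs, Reg1 had the highest Fano factor (variance over mean) among 1862 genes, at 138 in cKO 1, 165 in cKO 2 and 165 in WT, where the median gene was at 1.26, 1.27 and 1.24. Reg3b and Reg3g were also among the first 10, and the others were Tff3, Gm42418, Fabp1, mt-Rnr2, Fth1, Rbp2 and mt-Cytb. Reg1 counts in thinned cells ran from 1 to 650 in cKO 1, from 0 to 641 in cKO 2 and from 0 to 727 in WT. Reg3b had a median of 4, 2 and 11 UMIs per thinned cell and a highest value of 284, 240 and 436. The 10% of members with the most Reg3b held 57.6%, 64.0% and 54.4% of its UMIs, so this lectin was spread unevenly, although most members had a UMI of it. Il18 and Car4 were spread more evenly, the same share of cells holding 20.1% to 22.0% of Il18 and 26.4% to 29.6% of Car4. For Ms4a18 it was 17.4% to 26.0%. The rule asked for at least 5 Ms4a18 UMIs in every member, so the choice of cells partly fixed this even spread.

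**Figure D3:**
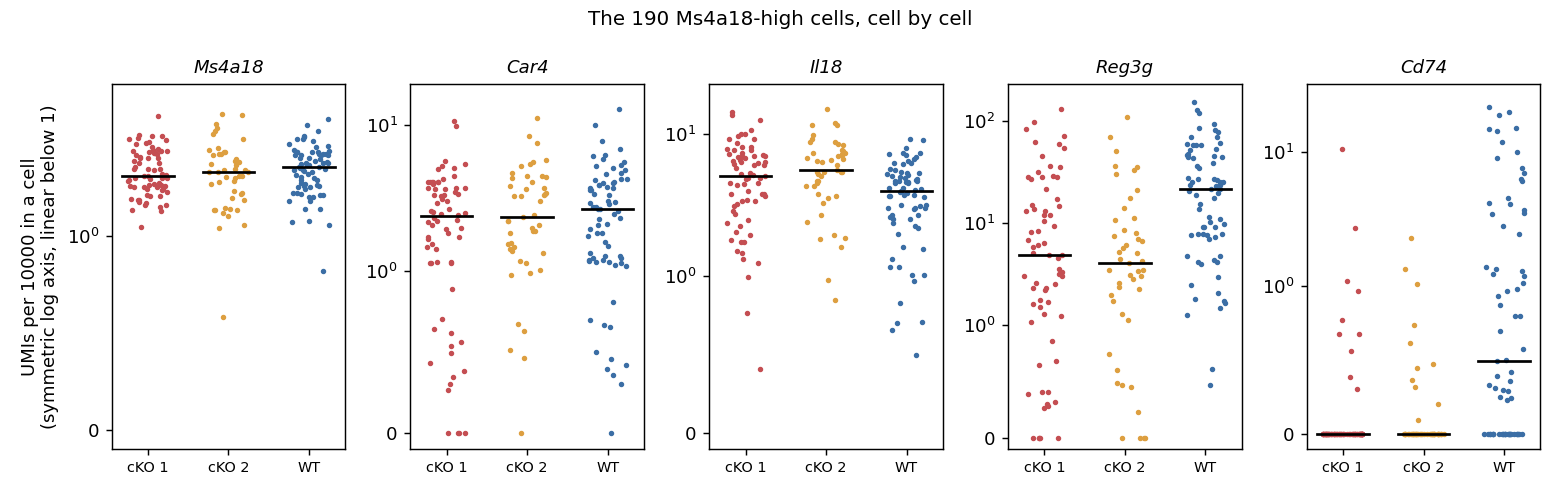
UMIs per 10000 in single Ms4a18-high cells (y axes, symmetric log, linear below 1) for 5 genes in the 3 libraries (x axis); each point is a cell and the bar is the median. Ms4a18, for which the rule fixed a floor of 5 UMIs per cell, and Il18 form compact clouds. Reg3g spreads from 0 to over 100, and the median Cd74 is above 0 in WT alone.

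Arid3a itself was barely counted. The members had 1 UMI of Arid3a in cKO 1, 2 in cKO 2 and 7 in WT, or 0.458, 1.16 and 3.01 CPM, too few for a test to be made. The 3′ tags were not placed against the deleted part of the gene, so these counts are no check of the deletion.

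For the comparison of genotypes, UMIs were summed over the members of each library. The sums were tested by the edgeR quasi-likelihood test with Benjamini-Hochberg adjustment, with 1 residual degree of freedom. That degree of freedom comes from the cKO pair, and the lone WT library was assumed to vary like it. The spread used for a gene was estimated jointly with the other genes. An SE or p-value thus does not measure that gene's own spread between libraries alone. Of 9005 genes tested, 39 were called lower in cKO (adjusted p under 0.05), which is 0.433% of the genes, and 18 were called higher, which is 0.2%. At an unadjusted p under 0.05 there were 802 genes, and the median log2 fold change over all genes was 0.00332. The DESeq2 Wald test called 13 genes and limma voom 91. Without the 4 members that stood apart, the edgeR count was 114, of which 50 were among the 57. Summed counts cannot separate fewer cells with a transcript from less RNA per cell.

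Genes of the MHC class II pathway fell most. This pathway loads peptides from the endosome for display to CD4+ T cells, and interferon-gamma is a known inducer of it in enterocytes. Of 7 listed genes tested, 5 were called lower in cKO and none higher, with a median log2 fold change of -2.92, which is the same with H2-Aa at its bound. Cd74, the invariant chain, was at 30.3 CPM in cKO 1, 16.8 CPM in cKO 2 and 277 CPM in WT, a log2 fold change of -3.50 (SE 0.19, edgeR adjusted p = 2.56e-11). With cells thinned to 15000 UMIs, 92.8%, 89.4% and 52.1% of members had no Cd74 UMI. H2-Ab1, the beta chain of I-A, was at 15.1, 7.52 and 84.7 CPM (log2 fold change -2.83, SE 0.25, adjusted p = 1.64e-07). H2-Aa, its alpha chain, had 0, 0 and 56 UMIs, at least 13.9-fold lower in cKO against a floor of 3 counts per library. H2-Eb1 had 20, 1 and 96 UMIs and H2-DMb1 had 1, 1 and 45. H2-DMa, with 31, 6 and 38 UMIs (adjusted p = 0.663), and Ctss, with 172, 160 and 205 UMIs (adjusted p = 0.973), were not called. In WT, all 9 immune-cell markers were at 0 in the members, while Cd74 had 645 UMIs.

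The promoter windows of H2-Aa and H2-Eb1 are shown because both genes fell together. Capitals mark the Y box CTGATTGG, searched on both strands and present in 4.10% of all windows. The first is chr17:34287774-34288073 on the minus strand and the second chr17:34305617-34305916 on the plus strand (GRCm38.p6).
H2-Aa: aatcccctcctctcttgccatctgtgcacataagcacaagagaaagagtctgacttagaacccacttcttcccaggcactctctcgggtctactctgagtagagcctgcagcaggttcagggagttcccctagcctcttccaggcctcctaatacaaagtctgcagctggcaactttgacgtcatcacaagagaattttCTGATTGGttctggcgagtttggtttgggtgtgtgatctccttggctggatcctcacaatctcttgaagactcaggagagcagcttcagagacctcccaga
H2-Eb1: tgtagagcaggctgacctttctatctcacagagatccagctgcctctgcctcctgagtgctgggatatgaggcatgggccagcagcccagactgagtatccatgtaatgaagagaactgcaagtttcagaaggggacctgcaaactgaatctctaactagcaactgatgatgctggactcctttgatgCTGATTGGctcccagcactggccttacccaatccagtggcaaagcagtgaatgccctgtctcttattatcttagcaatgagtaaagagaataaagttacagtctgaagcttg
Of 4 class II genes searched, 3 had a window and these 2 held the letters, while the H2-DMb1 window did not.

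Interferon-response genes fell in part. Of 11 listed genes tested, 4 were called lower and none higher, with a median of -0.86, and 10 of the 11 were lower in both cKO libraries. Igtp, an immunity-related GTPase, was at 5.96, 4.63 and 32.7 CPM (log2 fold change -2.57). Irgm2, of the same family, had 6, 4 and 34 UMIs, and Ifit1, an antiviral effector, had 21, 6 and 68, of which 52.9% in WT came from 1 cell. With the villus-base, Akp3 and Cubn groups pooled, the log2 fold change was -2.09 for Igtp, -1.80 for Irgm2, -0.97 for Ifit1 and -0.41 for Irf1. In the Akp3 group Ifit1 was not lower in cKO 1, at 23.2 against 13.1 CPM in WT. None of these genes was called in the interaction test described below. Irf1, a transcription factor of this response, was at 69.2, 74.6 and 123 CPM (log2 fold change -0.76, SE 0.15, edgeR adjusted p = 0.013). Psmb8, an immunoproteasome subunit, was at 199, 148 and 246 CPM and was not called (adjusted p = 0.299). Without the 4 members that stood apart, 5 of the 11 were called lower, Psmb8 among them (adjusted p = 0.0395).

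Heat shock genes, which encode chaperones and their cofactors, fell as well. Of 11 listed genes tested, 6 were called lower and none higher, with a median of -0.64. Hsph1, an HSP110 chaperone, was at 19.7 CPM in cKO 1, 27.2 CPM in cKO 2 and 126 CPM in WT (log2 fold change -2.42, SE 0.18, edgeR adjusted p = 1.51e-08). Hsp90aa1, a cytosolic HSP90, was at 235, 231 and 503 CPM, Hsp90ab1 at 675, 838 and 1365 CPM, and Chordc1, an HSP90 co-chaperone, at 28.9, 34.1 and 77.4 CPM. Hspa8 and Dnaja1, which fold client proteins together as HSP70 and its cofactor, were called as well. The stress-induced Hspa1b was not called, at 19.7, 9.26 and 15.05 CPM.

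The windows of Hsph1 and Chordc1 are shown for the heat shock element, GAA, NN, TTC, NN and GAA in a row, which was found on either strand in 0.603% of all windows. Capitals mark the matches, of which Chordc1 holds 3 that overlap. The Hsph1 window is chr5:149636287-149636586 on the minus strand and the Chordc1 window chr9:18292017-18292316 on the plus strand (GRCm38.p6).
Hsph1: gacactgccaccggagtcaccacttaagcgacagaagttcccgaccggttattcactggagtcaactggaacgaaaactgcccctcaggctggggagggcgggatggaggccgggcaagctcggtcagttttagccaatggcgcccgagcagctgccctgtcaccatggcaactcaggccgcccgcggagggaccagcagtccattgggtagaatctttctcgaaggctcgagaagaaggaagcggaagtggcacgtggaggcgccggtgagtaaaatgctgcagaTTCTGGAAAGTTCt
Chordc1: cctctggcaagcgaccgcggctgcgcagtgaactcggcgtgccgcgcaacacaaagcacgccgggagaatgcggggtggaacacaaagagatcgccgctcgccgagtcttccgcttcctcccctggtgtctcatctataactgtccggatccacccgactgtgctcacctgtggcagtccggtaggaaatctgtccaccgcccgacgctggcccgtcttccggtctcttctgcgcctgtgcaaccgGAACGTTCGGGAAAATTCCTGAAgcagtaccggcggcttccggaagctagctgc
Of 6 chaperone genes searched, 3 had a window and these 2 held the letters, while Dnaja1 did not.

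The metallothioneins, which bind zinc and copper, fell too. Mt1 was at 296 CPM in cKO 1, 263 CPM in cKO 2 and 760 CPM in WT (log2 fold change -1.42, SE 0.13, edgeR adjusted p = 1.98e-07). Mt2 had 7, 14 and 94 UMIs (log2 fold change -2.87). Mt1 was also lower in both cKO libraries within each of the villus-base, Akp3 and Cubn groups. With these groups pooled, the log2 fold change was -0.86 for Mt1 and -1.67 for Mt2. Mt2 was not lower in cKO 2 of the Akp3 group, at 68.7 against 46.1 CPM in WT. In the interaction test described below, Mt1 was among the called genes, at -0.55 against the pool.

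Lower-villus defence genes changed in both directions. Of 9 listed genes, 3 were called lower and 2 higher. Reg3g, a label marker, was at 1639 CPM in cKO 1, 902 CPM in cKO 2 and 3128 CPM in WT (log2 fold change -1.28, SE 0.17, edgeR adjusted p = 0.000135). Reg3b was at 2066, 1252 and 3746 CPM (log2 fold change -1.16), and Gpx2, a glutathione peroxidase, at 291, 338 and 477 CPM (log2 fold change -0.58). These 3 genes were also lower in both cKO libraries within each of the villus-base, Akp3 and Cubn groups. With these groups pooled, the log2 fold change was -1.53 for Reg3g, -1.58 for Reg3b and -0.39 for Gpx2. In the interaction test described below, Reg3b was called at 0.45 against the pool (edgeR adjusted p = 0.00491), while Reg3g and Gpx2 were not called. Reg1 and Il18 were called higher in cKO members. Both were also higher in both cKO libraries within each of the 3 groups, and neither was called in the interaction test. With the groups pooled, the log2 fold change was 0.44 for Reg1 and 0.14 for Il18. Il18 was at 563 and 589 CPM in cKO and 391 CPM in WT (log2 fold change 0.58, SE 0.13, adjusted p = 0.0303), and it was the 1 called gene of 11 tested inflammasome genes. Il18 was called in 8 of 13 alternatives, over which its adjusted p ran from 0.00092 to 0.998, and Reg3g in 11 of 13. The other label markers were not called, Ms4a18 at a log2 fold change of -0.05 (adjusted p = 0.951), Car4 at -0.09 (adjusted p = 0.913) and Dgat2 at -0.03 (adjusted p = 0.973). For Ms4a18 the rule itself fixes a floor in every library.

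Among the lipid genes, 3 of 20 were called higher in cKO and none lower, with a median of 0.11. Apoa1, the main protein of high-density lipoprotein, was at 6441 CPM in cKO 1, 6942 CPM in cKO 2 and 4660 CPM in WT (log2 fold change 0.54, SE 0.08, edgeR adjusted p = 0.000234). Apoc3 was at 835, 785 and 562 CPM, and Fabp2 at 7849, 8435 and 6598 CPM. Rbp2, a retinol carrier on the enterocyte list, was also called higher. Without the 4 members that stood apart, Apoa1 and Apoc3 were called (adjusted p = 0.00163 and 0.00688) and Fabp2, Rbp2 and Reg1 were not (adjusted p = 0.224, 0.107 and 0.071), while their log2 fold changes moved little, to 0.30 for Fabp2, 0.32 for Rbp2 and 0.35 for Reg1. Apoa4, Fabp1 and Mttp, the microsomal transfer protein, were not called. The 10 genes of sugar digestion and the 14 of peptide uptake had no call, with medians of -0.01 and 0.07.

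**Figure D4:**
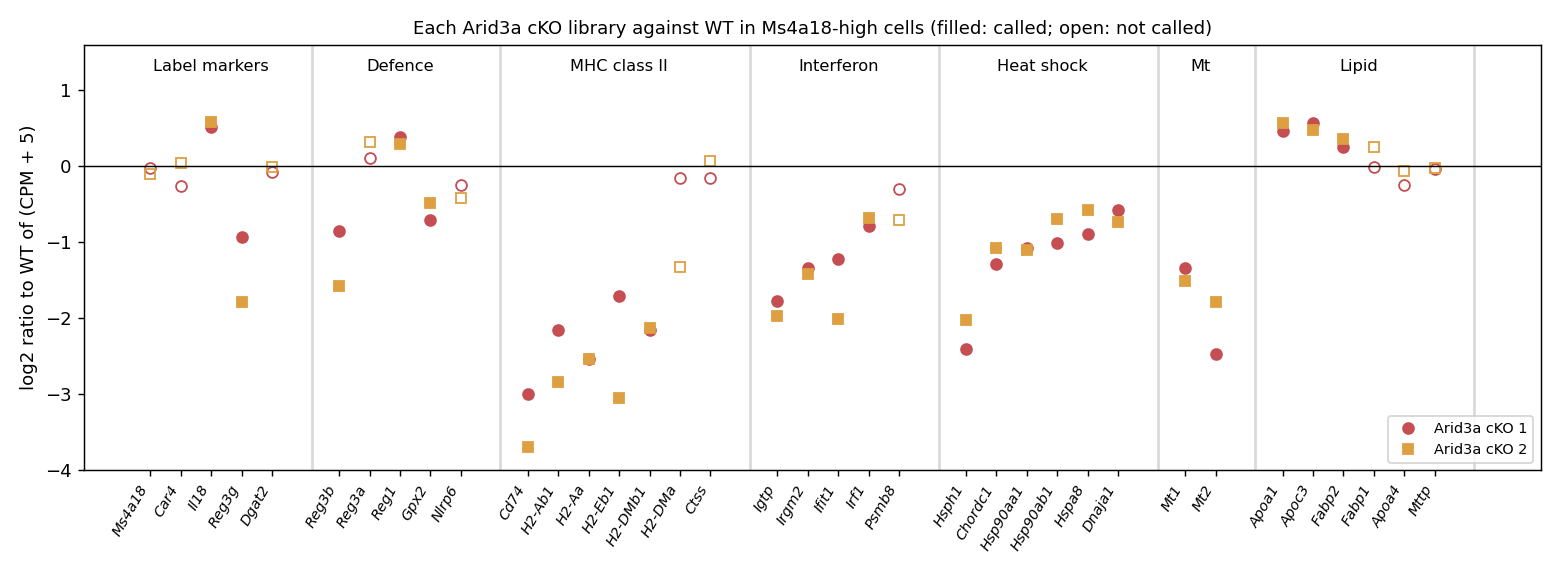
log2 ratio of CPM + 5 of each Arid3a cKO library to WT in the Ms4a18-high cells (y axis) for genes of 7 groups (x axis); filled symbols mark genes called by edgeR and open symbols the rest. MHC class II, heat shock and metallothionein genes that were called lie below 0 in both libraries, and Il18, Apoa1, Apoc3 and Fabp2 lie above it.

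Some calls carry a limit, in read assignment, in the weight of a single cell or in RNA quality. Of 7 tested RNA-quality genes 2 were called lower (Malat1 and mt-Nd3) and 2 higher, and the mitochondrial mt-Rnr1, mt-Rnr2 and mt-Atp8 were called lower too, beside median mitochondrial shares of 4.25%, 5.20% and 5.80%. Their part in the other calls was not tested. mt-Nd3, a mitochondrial complex I subunit, was at 12.4 CPM in cKO 1, 12.2 CPM in cKO 2 and 319 CPM in WT, while Gm28438, an unprocessed pseudogene at chr1:24612775-24613119 (GRCm38), had 200, 170 and 0 UMIs. The 2 transcripts match at 344 of 345 bases (99.7%), so how their reads were divided is uncertain, and both genes moved alike in the other enterocyte groups (mt-Nd3 at 6.83 to 14.3 CPM in cKO and 237 to 380 CPM in WT). The Paneth-cell defensin Defa30 was called lower, with 109, 79 and 211 UMIs in cKO 1, cKO 2 and WT. Its highest cell held 3.67%, 8.86% and 8.53% of them, and the part of RNA from other cells was not tested. The goblet genes Zg16, Muc2 and Tff3 and the chemokine Ccl6 were called lower as well. Of their WT UMIs, 93.1%, 78.1%, 93.1% and 98.1% came from 1 cell. Without the 4 members that stood apart, Zg16 (adjusted p = 0.0543) and Tff3 (adjusted p = 0.23) were not called, Muc2 was (adjusted p = 0.00157), and Ccl6 was not tested. Further genes called higher were Abhd17a, a depalmitoylase (359, 362 and 168 CPM), Nr1d1, a repressor of the clock (97.7, 75.2 and 42.1 CPM), Edn1, an endothelin (52.7, 50.3 and 23.2 CPM), and Gsta4, a glutathione transferase (479, 631 and 292 CPM). Mir6236, Wdfy1, Pyroxd1, Gtf3a and Sco2 were also called higher.

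A simpler rule asked for a mean of at least 20 CPM and a log2 ratio of CPM + 5 of at least 1 in size in both cKO libraries. It held for 12 of 4884 genes (0.246%), with 3 higher and 9 lower, and all 12 were among the edgeR calls. The 9 were mt-Nd3, Cd74, H2-Ab1, Hsph1, Hsp90aa1, Chordc1, Mt1, Zg16 and Muc2, and the 3 were Gm28438, Abhd17a and Mir6236. Without its highest cell in each library, Zg16 had ratios of -0.60 and -1.04 and no longer met the limit, and neither did Mir6236 in cKO 2, at 0.97. Without the 4 members that stood apart the rule held for 11 genes, of which 10 were among the 12.

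Whether the genotype difference in the members differed from that in a pool of the villus-base, Akp3 and Cubn cells was tested as an interaction over 6 sums. Of 13681 genes, 59 were called (0.431%), with 37 higher and 22 lower. Of the listed class II and heat shock genes, most were not among them. The exceptions were H2-Aa, which was at 0 in cKO members, and Hsp90ab1 (adjusted p = 0.00153 and 0.00022). Cd74 had a log2 fold change of -2.92 in the pool (interaction -0.59, SE 0.19, edgeR adjusted p = 0.222), and Hsph1 one of -1.77 (interaction -0.62, SE 0.19, adjusted p = 0.125). Of the 20 lipid genes, 2 were called, Apoa1 at 0.44 (SE 0.09, adjusted p = 0.000363) and Fabp2 at 0.41 (adjusted p = 0.000513), and Rbp2 was called at 0.36 (adjusted p = 0.0018). These values are against the pool, and within each of its groups the same genes were higher in both cKO libraries than in WT. Apoa1 was at 603, 769 and 411 CPM in the villus-base group, 5690, 8712 and 5094 CPM in the Akp3 group and 14721, 16424 and 11148 CPM in the Cubn group. Hsp90ab1 was likewise lower in both cKO libraries within each group. The pool held 648, 423 and 431 villus-base cells, 132, 119 and 77 Akp3 cells and 367, 232 and 407 Cubn cells in cKO 1, cKO 2 and WT, so its makeup differed between libraries in groups of very different Apoa1 level. The interaction therefore does not show that the members differ from any single group, and the part of the makeup was not tested. With a mean of at least 20 CPM, 3 genes were called (Zg16, Ccl6 and Gip), and Apoa1, Fabp2, Rbp2, H2-Aa and Hsp90ab1 were not among them.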

How the data were processed

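Single-cell libraries were made by a 10x 3′ mRNA method from sorted mouse intestinal epithelial cells (2 Arid3a cKO, 1 WT). Values as deposited by the authors are UMI counts, not normalized, from CellRanger 5.0.0 per the file headers. The genome build and annotation of the counting are not given in the sources used here, and 99.5% of 51912 gene IDs occur in GENCODE M21, from which gene positions were taken. Promoter windows came from the RefSeq table (GRCm38.p6).

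Barcodes with at least 1000 genes and at most 15% mitochondrial UMIs were kept. Doublet scores came from Scrublet in scanpy 1.11.5, and no cell was removed for its score. Members and gene lists were chosen with earlier results of these data known. Cells with at least 4 detected genes of 1 rule set alone formed the villus-base, Akp3 and Cubn groups. UMIs were summed per library and group and expressed as CPM. cKO was compared with WT in edgeR 4.0.16 (quasi-likelihood test, TMM, filterByExpr, threshold 0.05 after Benjamini-Hochberg adjustment over all genes tested), with DESeq2 1.42.0 and limma 3.58.1 as alternatives. The scripts were tested on simulated data. Intervals are exact (Clopper-Pearson, 95%).

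Genes named were the label markers, the rule genes, members of the fixed lists (called genes by size of change, then by level), up to 10 genes per direction among the calls by the smaller ratio at a mean of at least 20 CPM, and up to 15 genes, or 8 per group, by the smallest library ratio at 50 CPM or more, and up to 5 per direction in the interaction test. Genes of other cell types, Arid3a and single large changes were named after their values were seen. Nothing states how many animals gave a library, so p-values measure only a spread between libraries. That spread comes from the 2 cKO libraries and was estimated jointly over genes, and the 1 WT library was assumed to vary like them. Some genes of the fixed lists are not reported here.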

Additional observations from a re-analysis of the deposited data

Results flagged for a closer look

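The test of the difference in genotype effect between the members and the pooled villus-base, Akp3 and Cubn cells flagged 10 named genes, given here as interaction values on the log2 scale from the edgeR quasi-likelihood test. In 5 genes the value was below 0, at -3.60 for Zg16, -4.41 for Ccl6, -1.13 for Muc2, -0.99 for S100g and -0.56 for Hsp90ab1. In the other 5 it was above 0, at 5.16 for Gip, 5.04 for Hist1h1b, 1.22 for Cyp2c55, 0.87 for Cyp2b10 and 1.52 for Sct. Without the 4 members that stood apart, 6 of the 10 were called, and Zg16, Ccl6, Muc2 and Hist1h1b were not (adjusted p = 1.0 for each).

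S100g was at 743, 465 and 519 CPM in the members of cKO 1, cKO 2 and WT, and at 946, 1247 and 464 CPM in the pool. The Akp3 group, at 6035, 8007 and 4280 CPM of S100g, held 132, 119 and 77 cells in these libraries, and its part in the value was not tested. Hsp90ab1 was at 675, 838 and 1365 CPM in the members and 1601, 1792 and 2027 CPM in the pool. Within the groups it was also lower in both cKO libraries, at 2277, 2528 and 3088 CPM in the villus-base group, 693, 620 and 959 CPM in the Akp3 group and 376, 488 and 706 CPM in the Cubn group, so the value is no sign that the fall was particular to the members. Cyp2b10, a cytochrome P450, was at 154, 148 and 97.2 CPM in the members and 167, 166 and 190.4 CPM in the pool. Gip and Sct encode enteroendocrine hormones. The members had 18, 4 and 19 UMIs of Gip, or 8.25, 2.31 and 8.17 CPM, against 6.98, 3.997 and 286 CPM in the pool. Members and pool thus lay far apart in WT alone.

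Among barcodes outside the cell limits, 8 of WT met the rest of the rule, all of them above the mitochondrial limit, beside 1 in cKO 1 and 2 in cKO 2. They were in no comparison.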

How the results depend on the processing

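No paired analysis was possible because replicate 1 is the sole number in common. Without a cKO library no degree of freedom is left, so edgeR counts were not made for those settings. The share difference, cKO mean less WT, was -0.67 percentage points, -1.47 with at least 3 Ms4a18 UMIs, 0.0177 with at least 10, -0.34 with fewer than 3 genes per set, 0.10 with fewer than 5, -0.37 with 500 genes and 25% mitochondrial UMIs and -0.35 thinned to 15000 UMIs. It was -0.79 and -0.54 without 1 cKO library. The 57 genotype calls became 14 and 178 with fewer than 3 and 5 genes per set, 145 with the wider cell limits, 147 without the highest 5% of doublet scores, 24 thinned, 143 with RLE scaling, 113 unfiltered, 112 at a mean of at least 20 CPM, 13 with DESeq2 and 91 with limma voom. After seeing the data, leaving out the 4 members that stood apart was added, which gave 114. The 59 interaction calls became 36, 17, 31, 27 and 3 (at least 3 Ms4a18 UMIs, doublet scores, 4 members, RLE and 20 CPM), and 83 with the wider cell limits. The 12 separated genes became 107 at a limit of 0.5, 25 with no minimum, 61 with at least 10 Ms4a18 UMIs, 67 with fewer than 3 genes per set, 19 without high doublet scores, 37 thinned, and 28 and 36 without 1 cKO library. Of 21 list medians, 4 were over 0.5 in size, and 3 to 6 across settings. The heat shock median ranged from -0.76 to -0.58, MHC class II from -6.23 to -2.16 and interferon from -1.003 to -0.319. Of 517 values for 41 named genes, 393 kept their call, 119 kept the direction but not the call, and 5 turned. These were Edn1 (-0.0209), Fabp2 (-0.0344) and Reg1 (-0.42) with fewer than 3 genes per set, Reg1 thinned (-0.0481) and Gpx2 (0.0263) with at least 10 Ms4a18 UMIs. The cause was not tested. Cd74, H2-Ab1, Hsph1, Hsp90aa1, Mt1, mt-Nd3 and Gm28438 were called in all 13 alternatives.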

Other observations

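Intestinal transcription factors were near the level of the comparison groups in the members. The summed list of 21 genes was at 17.7, 18.4 and 18.3 UMIs per 10000 in cKO 1, cKO 2 and WT, and at 13.5 to 19.0 in the villus-base, Akp3 and Cubn groups. Maf was at 227, 249.98 and 231 CPM in the members, 71.2 to 98.0 CPM in the villus-base group and 308 to 356 CPM in the Cubn group. Maf thus had the order of the absorptive lists. Cdx1 had the opposite order against the villus-base group, at 55.5, 46.3 and 50.3 against 122, 126 and 141 CPM. Pdx1, a duodenal factor, was at 18.3, 18.5 and 13.8 CPM in the members and 53.4 to 89.0 CPM in the Akp3 group.

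Immediate early genes were less abundant in the members than in the villus-base group for 8 of 12 genes in every library, and Klf6 and Btg2 were above all 3 groups. No gene of the list was called between the genotypes, other than Klf2 once the 4 members that stood apart were left out (edgeR adjusted p = 0.0123). None of the 17 tested transcription factors was called by edgeR, and Hnf4a, at 94.4, 96.6 and 141 CPM, had a log2 fold change of -0.55 (SE 0.15, edgeR adjusted p = 0.134, and 0.0293 without the 4 members that stood apart).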
